A study of Homo sapiens with 6 samples.

Results

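Retinoic acid is made from vitamin A (retinol) by oxidation. Retinol is turned into retinal by retinol dehydrogenases, a reversible step that retinal reductases run backwards, and retinal is then turned into retinoic acid by retinal dehydrogenases. Inside the cell retinoic acid is carried to the nucleus by binding proteins such as CRABP2, binds the retinoic acid receptors RARA, RARB and RARG, which sit on DNA with a retinoid X receptor, and is cleared by the CYP26 hydroxylases. In the intestinal epithelium the pathway is known for its links to differentiation and immune tolerance.

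The 10 genes described here cover these steps. They are the oxidoreductases DHRS9, RDH10, RDH11 and DHRS3, the carrier CRABP2, the receptors RARA, RARB and RARG, and the hydroxylases CYP26A1 and CYP26B1. They were chosen by symbol from the 56638 gene symbols of the count tables, and all 10 were found. The list was selected on results of the same comparison, since DHRS9 was already known as a gene with a much higher count in METTL3-KO cells. The difference of these 10 genes between the groups is therefore given as a description, with no p-value. Where a gene is said to be past the all-gene threshold, that too is a description.

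RNA was sequenced from HCT116 cells, an established human colorectal cancer line, as 3 WT and 3 METTL3-KO samples. METTL3 is the catalytic subunit of the enzyme that writes N6-methyladenosine (m6A) on mRNA. METTL3-KO cells came from a single monoclonal line, made by lentiviral CRISPR-Cas9 editing and puromycin selection, while the WT samples are labelled wild type with no vector named, so effects of the clone or the vector cannot be told apart from those of the knockout. That origin is the one given by the labels and the study's methods. The deposited files are themselves named NC for the WT and SiM3 for the METTL3-KO samples, short forms that the sources used here do not explain, and this conflict was not resolved; the groups below follow the labels. Both groups grew in McCoy's 5a medium with serum, and no retinoid treatment is named. Nothing in the labels says that the 3 samples of a group came from separate cultures, so p-values measure the spread between these samples, which may be technical.

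METTL3 itself, on chromosome 14 of GRCh37 (21966277 to 21979484, minus strand), kept 162 to 219 counts in METTL3-KO samples, beside 623 to 841 in WT samples. The difference was -2.04 on the log2 scale (SE 0.0906, adjusted p = 1.59e-07, edgeR's quasi-likelihood test), without overlap between the groups. Of its exon bases in GENCODE v44lift37, 388 are shared with TOX4 on the other strand. The libraries held between 20936091 and 30142144 counts on genes. In each group replicate 3 stood apart: its chi-square per gene against the other samples of its group was 7.61 to 20.8, where replicates 1 and 2 gave 2.23 and 2.44. Its deviations followed transcript length, upwards in WT (r = 0.631) and downwards in METTL3-KO cells (r = -0.570, both across 10322 genes, which are not independent replicates), so the fold changes of the 10 genes and of most named pathway genes are also given from replicates 1 and 2 of each group, a choice made after the data were seen. All 9 colorectal epithelial markers were detected, among them EPCAM at 514 and 519 CPM in the 2 groups, and 5 of them rose (KRT8, KRT19, KRT20, CDH1 and VIL1). KRT20, a marker of differentiated colonic epithelium, rose from 252 to 713 CPM (2.83-fold, adjusted p = 1.16e-06, edgeR's test), and the part of these markers in the values below was not tested. Of 9 markers of fibroblasts, immune cells and endothelium, COL1A2, COL3A1 and PECAM1 were at 0 in every sample, DCN, PTPRC, CD3E, CD68 and VWF had at most 4 counts in any sample, and COL1A1 had 100 to 188.

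Retinoic acid receptors are known to bind pairs of a 6-base unit set in the same direction, most often with 5 bases between them (DR5) or with 2 (DR2). The unit searched was AGGTCA or GGGTCA or, with a T, AGTTCA or else GGTTCA, on both strands of RefSeq promoter windows on GRCh38.p14, each holding 250 bases before and 50 after a start. A DR5 was found in 31 of 35116 windows (0.0883%) and a DR2 in 14 (0.0399%). Among the 20 windows of the 9 genes that have one here, a DR5 was found in 1 of 4 RARB windows and 1 of 2 CYP26A1 windows, and a DR2 in none. The 150 bases before the start are shown for both, because RARB and CYP26A1 are textbook genes induced by retinoic acid and their counts below can be read beside these letters. Capitals mark the DR5, and both stretches are read on the gene's own strand, the plus strand, at chr3:25428113-25428262 for RARB and chr10:93073743-93073892 for CYP26A1.
RARB: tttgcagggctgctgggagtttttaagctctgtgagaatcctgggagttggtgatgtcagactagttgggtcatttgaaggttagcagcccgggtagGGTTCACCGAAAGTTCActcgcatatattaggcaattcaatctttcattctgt
CYP26A1: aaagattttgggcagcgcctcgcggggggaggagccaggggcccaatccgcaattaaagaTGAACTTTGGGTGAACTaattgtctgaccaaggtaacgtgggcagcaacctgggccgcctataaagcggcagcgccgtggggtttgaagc

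The RARB element, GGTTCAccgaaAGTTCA, lies 53 to 37 bases before the start at chr3:25428210-25428226. The CYP26A1 element lies 90 to 74 bases before the start at chr10:93073803-93073819 and reads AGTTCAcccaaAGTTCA on the other strand. A match is a description of the letters and not evidence of binding in HCT116 cells. The absence of a match in the windows of DHRS9, DHRS3, RDH11, CRABP2, RARA, RARG and CYP26B1 says only that these letters are not in those windows.

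DHRS9 was 14.9-fold higher in METTL3-KO than in WT cells, by far the largest difference among the 10 genes. RARG, RDH11, RDH10 and RARA were 1.32 to 1.68-fold higher and CYP26A1, at a low level, 2.28-fold higher. CYP26B1, also low, was lower, at 0.420 of the WT level, and DHRS3 and CRABP2 differed by -0.19 and -0.17 on the log2 scale. RARB had at most 3 counts in any sample. In CPM, counts scaled to a common library size after TMM normalization, all METTL3-KO samples lay above all WT samples for 6 of the 10 genes, below them for 1, and overlapped them for 3. Over all 22452 genes tested, 20.2% lay above and 20.7% below. By edgeR's test across all genes, 6 of the 10 were higher and 1 lower at an adjusted p under 0.05, beside 13.3% higher and 13.2% lower of all genes. All 10 passed the count minimum. Nothing is read from these counts, since the list was selected on this comparison. The median log2 fold change was 0.47 over the 10 genes and -0.022 over all genes tested. In bulk RNA, fewer cells that express a gene and less RNA of it per cell cannot be told apart.

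**Figure D1:**
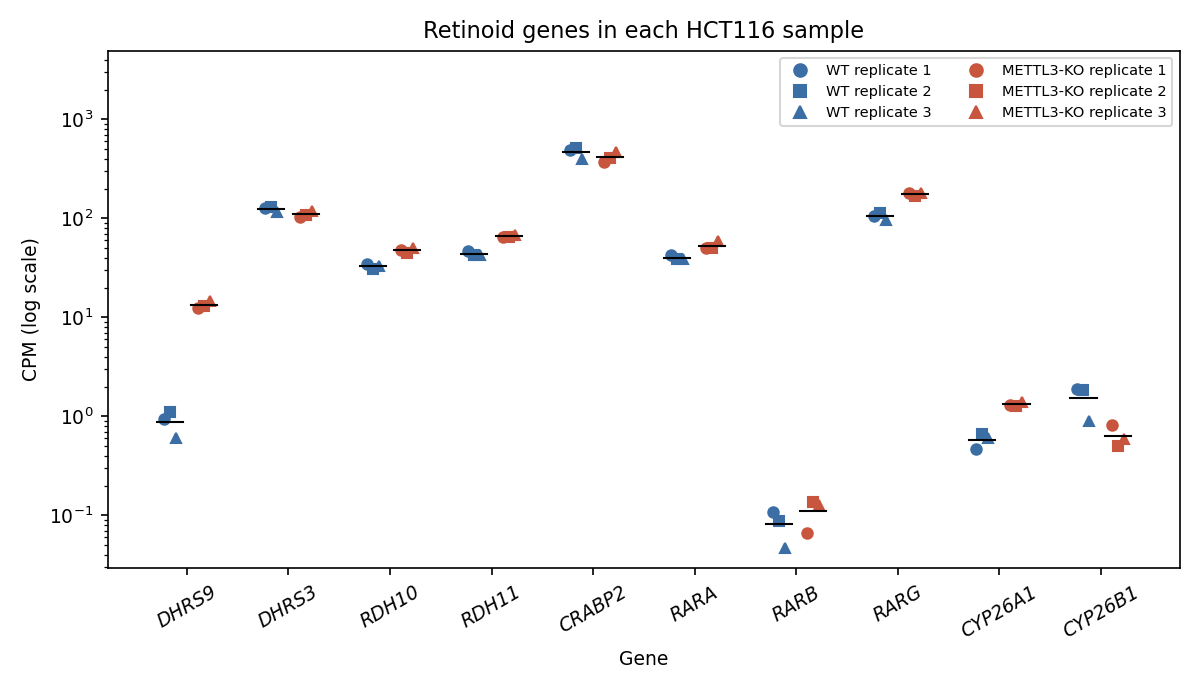
CPM of each gene in each sample, on a log axis. Points are samples, marked by group and replicate, and lines are group means (n = 3); the METTL3-KO points of DHRS9 sit between 12.3 and 14.8 CPM and the WT points between 0.610 and 1.11.

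DHRS9 is a short-chain dehydrogenase that oxidizes retinol, and also some steroids. It lies on chromosome 2 of GRCh37 (169921299 to 169952677, plus strand). WT samples held 26, 25 and 13 counts, METTL3-KO samples 372, 290 and 348. In CPM, WT samples were at 0.947, 1.11 and 0.610 and METTL3-KO samples at 12.3, 13.2 and 14.8. The groups did not overlap, and the lowest METTL3-KO sample stood far above the highest WT sample. The mean went from 0.887 ± 0.253 to 13.4 ± 1.25 CPM (SD, n = 3 each), a fitted log2 fold change of 3.90 (SE 0.176, 95% interval 3.51 to 4.28). With replicates 1 and 2 alone it was 3.63. By log2 fold change DHRS9 ranked 2 from the top among the 12797 genes whose log2 CPM averaged 1 or more, and 93 among all genes tested. It reached that average of 1 only through its METTL3-KO samples, since its WT mean was 0.887 CPM. DHRS9 was also chosen with this difference known, so the ranks are a description. No exon base of DHRS9 is shared with another gene.

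RDH10 is the main retinol dehydrogenase of the embryo. It lies on chromosome 8 (74206837 to 74237516, plus strand, GRCh37). Its level was 34.7, 30.7 and 33.2 CPM in the WT samples and 48.5, 44.8 and 49.7 CPM in the METTL3-KO samples. Every METTL3-KO sample lay above every WT sample. Its log2 fold change was thus 0.53 (SE 0.0815, 95% interval 0.36 to 0.71), and 0.51 with replicates 1 and 2 alone. Of its exon bases 5.2% are shared with RDH10-AS1 on the other strand. Whether the authors' counting used strand is not given in the sources used here, so reads of a gene and of an antisense partner may not be told apart.

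RDH11 reduces retinal and related aldehydes. It lies on chromosome 14 (68143517 to 68162510, minus strand, GRCh37). The WT samples held 47.0, 43.0 and 42.3 CPM and the METTL3-KO samples 65.5, 64.6 and 67.9 CPM, with no overlap. This gave a log2 fold change of 0.58 (SE 0.0752, 95% interval 0.42 to 0.75), and 0.53 with replicates 1 and 2 alone. In GENCODE v44lift37, 6.3% of the exon bases of RDH11 are shared with a protein-coding gene on the same strand. Whether the authors' annotation held that gene was not tested. RDH11 and RDH10, which favour opposite directions of the retinol to retinal step, were thus both higher by a similar size.

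DHRS3 is a retinal reductase, itself known to be induced by retinoic acid, and lies on chromosome 1 (12627939 to 12678216, minus strand, GRCh37). It stood at 129, 129 and 117 CPM in the WT samples and at 102, 108 and 119 CPM in the METTL3-KO samples. The groups overlapped, because METTL3-KO replicate 3 lay above WT replicate 3. METTL3-KO cells differed from WT by -0.19 on the log2 scale (SE 0.0794, 95% interval -0.36 to -0.016). It was -0.30 with replicates 1 and 2 alone. After a correction of the samples for length and GC content of transcripts it was -0.19 with a smaller SE of 0.0486.

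CRABP2 hands retinoic acid to the receptors in the nucleus. It lies on chromosome 1 (156669398 to 156675608, minus strand, GRCh37) and had the most counts of the 10 genes, 8444 to 13416 per sample. Its level was 489, 516 and 396 CPM in the WT samples and 373, 406 and 463 CPM in the METTL3-KO samples. The groups overlapped, with WT replicate 3 lowest of its group and METTL3-KO replicate 3 highest of its own. On the log2 scale the difference was -0.17 (SE 0.106, 95% interval -0.41 to 0.057), and -0.37 with replicates 1 and 2 alone. CRABP2 is also the shortest of the 10 genes, with 1082 exon bases. After a correction of the samples for length and GC content of transcripts the difference was -0.15 and its SE 0.0517.

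RARG, a receptor prominent in epithelia, lies on chromosome 12 (53604351 to 53626764, minus strand, GRCh37). It was at 107, 112 and 96.7 CPM in the WT samples and at 179, 169 and 182 CPM in the METTL3-KO samples. Every METTL3-KO sample lay well above every WT sample. The log2 fold change was 0.75 (SE 0.0772, 95% interval 0.58 to 0.92), and 0.67 with replicates 1 and 2 alone.

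RARA, the most widely expressed receptor of the family, lies on chromosome 17 (38465432 to 38513895, plus strand, GRCh37). Its level was 42.5, 39.0 and 38.9 CPM in the WT samples and 50.7, 49.95 and 58.9 CPM in the METTL3-KO samples. The groups did not overlap, and METTL3-KO replicate 3 was the highest of its group. A log2 fold change of 0.40 was fitted (SE 0.0867, 95% interval 0.22 to 0.59), and 0.30 with replicates 1 and 2 alone. Of its exon bases 21.4% are shared with RNAs on the other strand, RARA-AS1 among them.

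RARB lies on chromosome 3 (24729378 to 25639423, plus strand, GRCh37). It had 3, 2 and 1 counts in WT cells and 2, 3 and 3 in METTL3-KO cells. The groups overlapped, and at this depth no difference could be detected, so no fold is given. RARB had counts in all 6 samples, but stood at or under the 3 counts that a count of 0 would allow. By counting error alone, that limit is 0.0995 to 0.141 CPM in these libraries.

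Set per kilobase of exon, so that genes can be compared, RARG made up most of the receptor mRNA. Its share of the summed level of RARA, RARB and RARG was 69.8%, 72.7% and 69.7% in WT cells and 76.5%, 75.8% and 74.1% in METTL3-KO cells. The shares did not overlap between the groups. RARA held most of the rest, 29.2% ± 1.70 in WT and 24.5% ± 1.24 in METTL3-KO cells (SD, n = 3 each), and RARB between 0.015% and 0.039%. RARA and RARG were both higher in METTL3-KO cells, by a larger fold for RARG. The size of the shares depends on the length used. Per kilobase of the longest transcript, RARG stood at 36.1 and RARA at 12.3 CPM in WT cells, and at 60.6 and 16.2 in METTL3-KO cells. The exon bases that RARA shares with RNAs on the other strand may also affect its share, which was not tested.

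**Figure D2:**
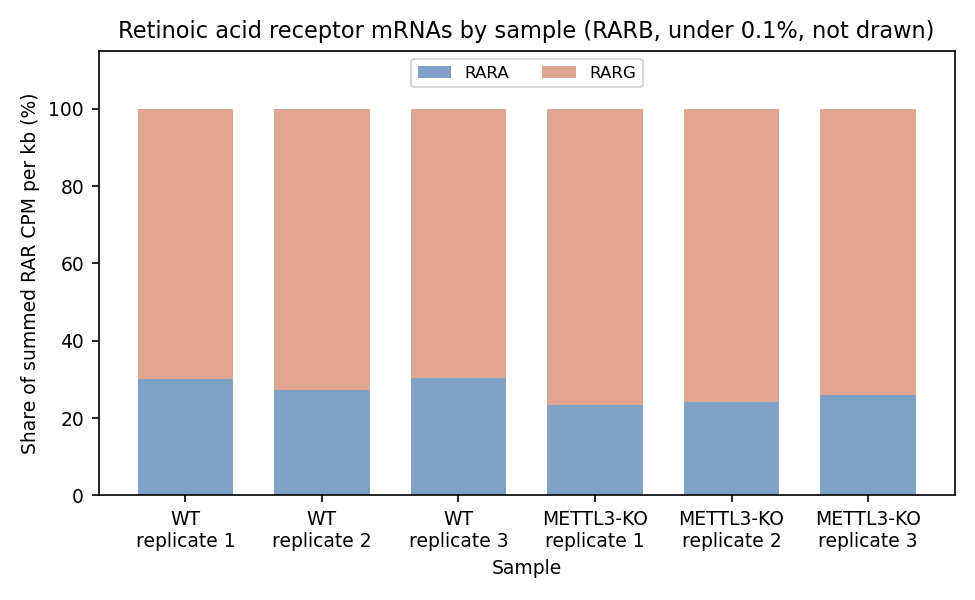
Share of each receptor in the summed CPM per kilobase of RARA, RARB and RARG, 1 bar per sample, in percent. RARG takes 69.7% to 72.7% of the WT bars and 74.1% to 76.5% of the METTL3-KO bars, and RARB, at most 0.039%, is not drawn.

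CYP26A1 hydroxylates retinoic acid and is a standard reporter of receptor activity in many cells. It lies on chromosome 10 (94833232 to 94837642, plus strand, GRCh37). It had 13, 15 and 13 counts in WT cells and 39, 28 and 33 in METTL3-KO cells, or 0.474, 0.664 and 0.610 against 1.29, 1.27 and 1.40 CPM. The groups did not overlap, though both were low. The fitted difference was 1.19 on the log2 scale (SE 0.261, 95% interval 0.62 to 1.76), and the same 1.19 with replicates 1 and 2 alone. In GENCODE v44lift37, 25.3% of its exon bases are shared with a long noncoding RNA on the same strand. Whether the authors' annotation held this RNA, so that such reads were left out of the count, was not tested.

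CYP26B1, a related hydroxylase, lies on chromosome 2 (72356367 to 72374991, minus strand, GRCh37). It had 52, 42 and 19 counts in WT cells and 25, 11 and 14 in METTL3-KO cells, or 1.89, 1.86 and 0.891 against 0.829, 0.500 and 0.595 CPM. The groups did not overlap, but WT replicate 3 lay close to METTL3-KO replicate 1. The log2 fold change was -1.25 (SE 0.332, 95% interval -1.98 to -0.52), and -1.45 with replicates 1 and 2 alone. Without WT replicate 1, WT replicate 2 or METTL3-KO replicate 2 the gene was no longer past the all-gene threshold. CYP26A1 and CYP26B1, which act on the same substrate, thus stood on opposite sides of 0, with intervals that do not overlap. This is a description, since both were selected on this comparison, and the 2 genes were not tested against each other.

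**Figure D3:**
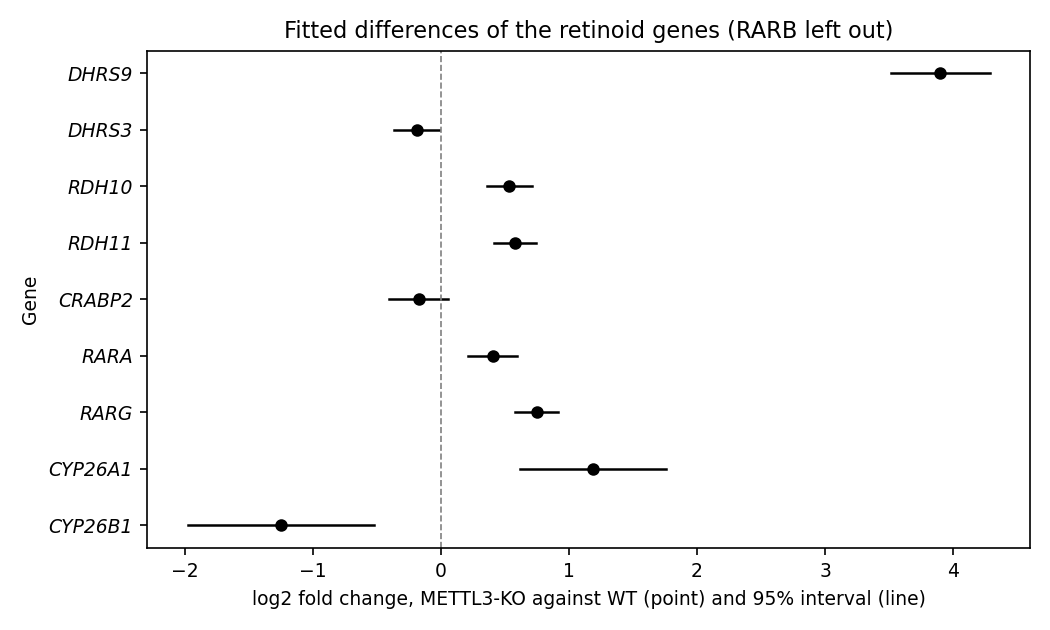
Fitted log2 fold change of METTL3-KO against WT for 9 of the 10 genes, with RARB left out for its low counts. Points are estimates and lines 95% intervals; DHRS9 stands apart at 3.90, and the intervals of CYP26A1 and CYP26B1 lie on opposite sides of 0.

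The order of levels per kilobase of exon in WT cells was led by CRABP2, at 431 ± 58.1 CPM per kilobase (SD, n = 3), far above DHRS3 at 35.5 ± 1.93 and RARG at 20.5 ± 1.55. RARA at 8.46 ± 0.431 and RDH11 at 8.02 ± 0.460 followed and overlapped each other, and RDH10 came next at 6.17 ± 0.373. CYP26B1, DHRS9 and CYP26A1 lay between 0.196 and 0.320 CPM per kilobase and did not differ beyond their spread, and RARB was last. In METTL3-KO cells RARG, at 34.5 ± 1.32, stood above DHRS3, at 31.2 ± 2.35, with samples that overlapped, and RDH11 stood above RARA, again with overlap. DHRS9 moved from place 8 to place 7, at 3.58 ± 0.333 CPM per kilobase, and so stayed under RDH10 at 8.94 ± 0.477. CYP26B1 moved from place 7 to place 9. The places were the same when the longest transcript was used in place of all exon bases.

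**Figure D4:**
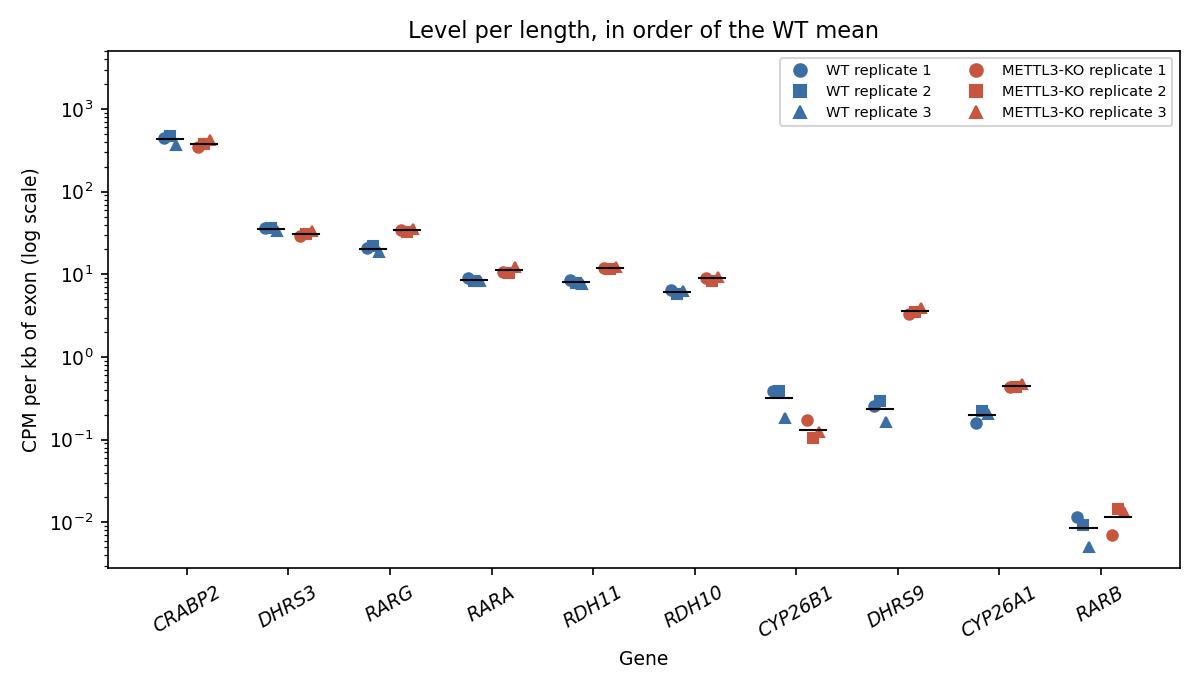
CPM per kilobase of exon in each sample, on a log axis, with genes in the order of their WT mean. Points are samples and lines group means (n = 3); CRABP2 leads both groups, and DHRS9 moves from 0.237 to 3.58 but stays below RDH10.

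The genes whose pattern over the 6 samples was most like that of DHRS9 were PLA2G2F, ANO3 and CYP27A1. Likeness was the Euclidean distance between log2 CPM values, each gene centred on its own mean, over the same 12797 genes whose log2 CPM averaged 1 or more. The values were not scaled, so the distance largely follows the size of the difference between the groups, for which DHRS9 was chosen. The log2 fold changes were 3.53 for PLA2G2F, 4.23 for ANO3 and 2.82 for CYP27A1. ANO3, at a WT mean of 0.562 CPM, also reached the average of 1 only through METTL3-KO samples. The likeness is a description. The distance was 0.550 for PLA2G2F, a secreted phospholipase A2, with 55, 46 and 26 counts in WT and 628, 370 and 560 in METTL3-KO samples. It was 0.691 for ANO3, an anoctamin, with 14, 16 and 10 against 376, 224 and 212 counts. It was 1.29 for CYP27A1, the mitochondrial sterol 27-hydroxylase, with 41, 42 and 19 against 314, 218 and 235 counts. As for DHRS9, WT replicate 3 had the fewest counts of the 6 samples in each of these genes.

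Other genes of the pathway were taken from 6 lists of 69 symbols found in the tables, of which 55 passed the count minimum. By edgeR's test across all genes, 15 rose and 10 fell in METTL3-KO cells and 30 did not pass, beside 13.3% and 13.2% of all genes. With replicates 1 and 2 alone, 22 were higher and 14 lower, but more of all genes were called there too, 21.4% higher and 22.7% lower. The filterByExpr filter, which removes more genes of low count, left 15 of the pathway genes higher and 10 lower. Of all 16124 genes it kept, 3053 were higher and 2982 lower. The median log2 fold change of the 55 was 0.17. Changes of single genes below are on the log2 scale.

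**Figure D5:**
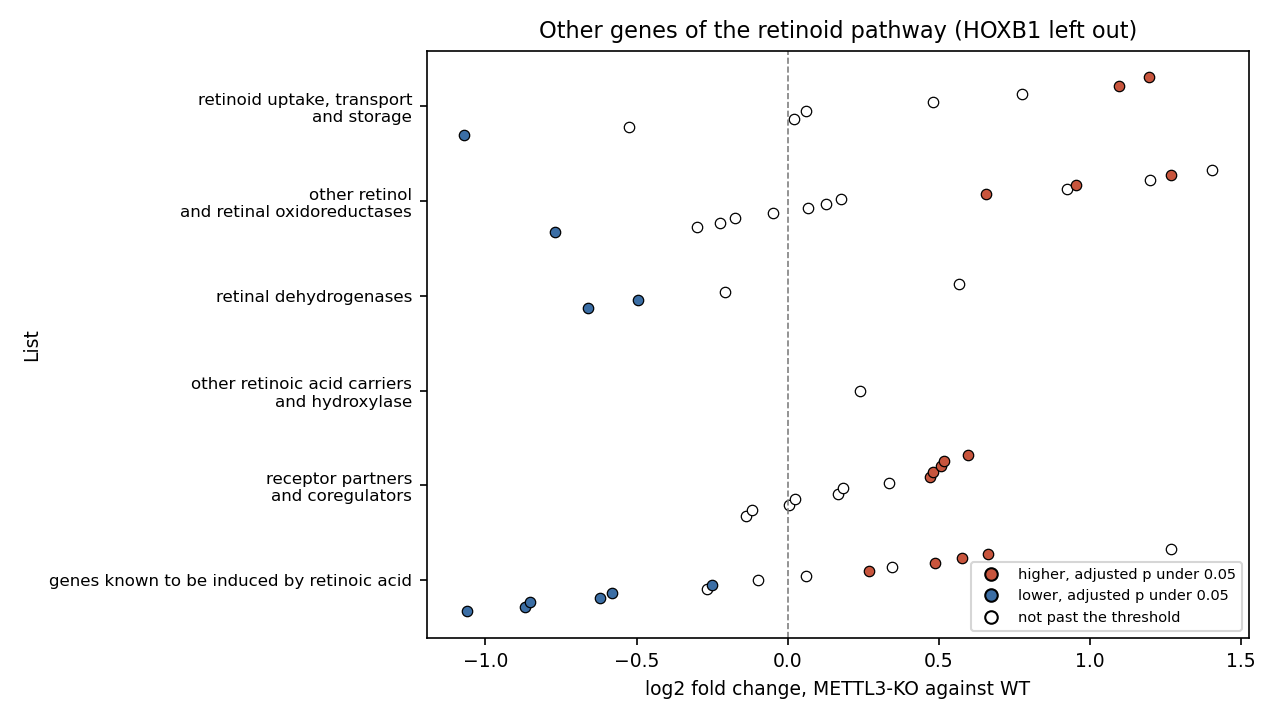
Log2 fold change of METTL3-KO against WT for the other pathway genes that passed the count minimum, 1 row per list and 1 point per gene, with HOXB1 left out for its low counts. Filled points passed an adjusted p under 0.05 in edgeR's test; both retinal dehydrogenases that passed lie below 0, and all 5 receptor partners and coregulators that passed lie above it.

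Upstream of retinal, genes of uptake, transport and storage were split. Of 13 listed genes, 8 were tested, of which 2 rose, 1 fell and 5 did not pass (median log2 fold change 0.27). STRA6, the membrane receptor that takes up retinol from its plasma carrier and a gene known to respond to retinoic acid, had 580, 444 and 335 counts in WT and 1120, 920 and 991 in METTL3-KO samples. It went from 18.8 ± 2.80 to 40.4 ± 2.80 CPM (SD, n = 3 each), up by 1.10 on the log2 scale (SE 0.110 and adjusted p = 2.76e-05, edgeR's test), with no overlap between the groups. BCO2, a carotenoid-cleaving oxygenase, rose by 1.19 (SE 0.269, adjusted p = 0.00602), with 16 to 31 counts in WT and 51 to 56 in METTL3-KO samples. RBP4, the plasma carrier of retinol, fell by 1.07 (SE 0.156, adjusted p = 0.000359), from 7.25 to 3.49 CPM. With replicates 1 and 2 alone the changes were 0.94 for STRA6, 1.06 for BCO2 and -1.28 for RBP4. LRAT, which stores retinol as esters, was at 0 in every sample.

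Among the other retinol and retinal oxidoreductases, 14 of 18 were tested, of which 3 rose, 1 fell and 10 did not pass (median 0.15). DHRS2, a short-chain dehydrogenase, rose by 1.27 (SE 0.118, adjusted p = 1.61e-05, edgeR's test), from 9.40 to 22.6 CPM. Whether DHRS2 acts on retinoids was not tested. SDR16C5, a retinol dehydrogenase of epithelia, rose by 0.95 (SE 0.152, adjusted p = 0.000674). RDH5, best known from the visual cycle, rose by 0.65 (SE 0.219, adjusted p = 0.0453), and 7 of 14 alternative fits lost this call, with an adjusted p of up to 0.180. AKR1B10, an efficient retinal reductase, fell by 0.77 (SE 0.0926, adjusted p = 9.83e-05), from 77.9 to 45.7 CPM. With replicates 1 and 2 alone the values were 1.19 for DHRS2, 0.73 for SDR16C5, 0.86 for RDH5 and -0.82 for AKR1B10.

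The retinal dehydrogenases make retinoic acid itself. All 4 on the list were tested, of which none rose, 2 fell and 2 did not pass (median -0.35). ALDH1A1 was by far the most counted gene of the whole pathway, with 32155, 24905 and 23212 counts in WT and 23659, 16474 and 19968 in METTL3-KO samples. The mean went from 1120 ± 44.5 to 794 ± 50.5 CPM (SD, n = 3 each), so that it fell by 0.50 (SE 0.0709, adjusted p = 0.000316, edgeR's test), and the groups did not overlap. ALDH1A3 had 128, 132 and 130 counts in WT and 104, 79 and 80 in METTL3-KO samples, and fell by 0.66 (SE 0.144, adjusted p = 0.00499). Both calls held in all 14 alternative fits, and replicates 1 and 2 alone gave -0.57 for each. ALDH1A2 had 5 to 12 counts in any sample and did not pass. Of the other carriers and hydroxylase, CRABP1 was at 0 in every sample, CYP26C1 had 1 count in all, and FABP5, which carries retinoic acid to PPARD, had 4 to 21 counts per sample and did not pass. Reads that aligned to more than 1 place, 13.4% to 14.7% per sample, were not counted. Their part in the low count of FABP5 was not tested.

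Among receptor partners and coregulators, 12 of 13 were tested, of which 5 rose, none fell and 7 did not pass (median 0.26). NR2F1 and NR2F2 are orphan receptors that bind similar DNA repeats. NR2F1 rose by 0.60 (SE 0.0911, adjusted p = 0.000509, edgeR's test), from 13.1 to 19.8 CPM, and NR2F2, which falls outside the rule for named genes and is given after its values were seen, rose by 0.47 (SE 0.0702, adjusted p = 0.000432). PPARD, a receptor reported to be activated by retinoic acid, rose by 0.51 (SE 0.0698, adjusted p = 0.000249). NRIP1, a corepressor itself induced by retinoic acid, rose by 0.52 (SE 0.154, adjusted p = 0.0266), with groups that overlapped in CPM. Its call was lost with replicate numbers as a block and in 4 fits that left out a sample (highest adjusted p = 0.123), while replicates 1 and 2 alone gave 0.85. In the same samples NR2F1 stood at 0.57 and PPARD at 0.52. The obligate partners RXRA and RXRB did not pass, though for both every METTL3-KO sample lay above every WT sample in CPM. That separation was seen for 20.2% of all genes tested. RXRA had a log2 fold change of 0.17 (adjusted p = 0.0845) and RXRB of 0.18 (adjusted p = 0.0993), and RXRG was at 0 in every sample.

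Genes listed as known to be induced by retinoic acid in other cells went both ways. This list leaves out CYP26A1 (1.19), STRA6 (1.10), NRIP1 (0.52), DHRS3 (-0.19) and RARB, which are described above as induced or responsive. Its counts and median therefore depend on how genes were split between lists. Of 18 listed genes, 16 were tested, of which 5 rose, 6 fell and 5 did not pass (median -0.019). Of those named by size, RARRES2, the adipokine chemerin, fell by 1.06 (SE 0.214, adjusted p = 0.00306, edgeR's test). The homeobox gene HOXB5 fell by 0.87 (SE 0.0867, adjusted p = 2.64e-05), from 136 ± 14.8 to 74.3 ± 1.78 CPM. HOXA4, another homeobox gene, fell by 0.85 (SE 0.211, adjusted p = 0.0104), a call lost without METTL3-KO replicate 2 (adjusted p = 0.0511). MEIS1, a homeobox partner of HOX proteins, rose by 0.66 (SE 0.184, adjusted p = 0.0187), a call lost with replicate numbers as a block and without WT replicate 1, METTL3-KO replicate 1 or METTL3-KO replicate 3 (highest adjusted p = 0.0750). Replicates 1 and 2 alone gave -1.10 for RARRES2, -0.98 for HOXB5, -0.74 for HOXA4 and 0.52 for MEIS1. HOXB1, which falls outside the rule for named genes and is given after its values were seen, passed on 1 count over the WT samples and 5, 6 and 3 counts in METTL3-KO samples.

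Beyond RARB and CYP26A1, 27 genes hold a DR5 in a promoter window, a list defined by sequence after the data were seen. Of these, 13 were tested, with a median log2 fold change of 0.066, and 1 rose and 3 fell, beside 13.3% and 13.2% of all genes. ATXN1L rose by 0.41 (adjusted p = 0.0137, edgeR's test). CYB5R2 fell by 0.50 on the log2 scale (adjusted p = 0.0222), PANK2 by 0.33 (adjusted p = 0.00483) and PRSS27 by 0.89 (adjusted p = 0.0112).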

How the data were processed

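RNA-seq of 3 WT and 3 METTL3-KO HCT116 samples was analysed, none left out or pooled. The authors built the libraries with a TruSeq RNA kit, aligned the read pairs to hg19 with TopHat 2.0.11 and an Ensembl GRCh37 transcript index, and counted them in the union mode of htseq-count, which drops reads shared by overlapping genes. The values they deposited are unnormalized counts for each symbol. Rows of unassigned reads, 28.2% to 30.7% per sample, were kept out of library sizes. Limits set by a count of 0 cover counting error only, and intervals of fold changes cover the spread between these samples.

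Genes with fewer than 5 counts in total in both conditions were removed, as the study did, and METTL3-KO was tested against WT with edgeR's quasi-likelihood test (edgeR 4.0.16, R 4.3.3), TMM normalization and two-sided Benjamini-Hochberg adjusted p-values over 22452 genes. The SE is the size of the log2 fold change divided by the square root of F. Levels per kilobase used the exon bases of GENCODE v44lift37 on GRCh37, in which 35770 of 56638 symbols were found. On simulated data the test called 198 of 200 changed genes and 6 others among 21801. Of the changed genes, it called 100 of 100 set at 4-fold and 98 of 100 set at 2-fold. How often it calls a fold under 2 was not tested.

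The 10 genes, the pathway lists and the rule for named genes were chosen with earlier results of these data known. The rule names the 10 genes, METTL3, up to 4 genes per pathway list with an adjusted p under 0.05 and the largest log2 fold change at a mean log2 CPM of at least 0, genes needed to describe the route, and the 3 genes most like DHRS9. Some genes of the lists are counted but not reported by name here.

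Alternatives were RLE normalization, DESeq2 1.42.0, the filterByExpr filter, no filter beyond 1 count, replicate numbers as a block, a correction for transcript length and GC content (splines with 5 degrees of freedom) alone and with the block, each sample left out, and, added after the data were seen, replicates 1 and 2 alone. File names carry NC and SiM3 in place of WT and METTL3-KO, and other WT replicate numbers than the labels, which were followed.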

Additional observations from a re-analysis of the deposited data

How the results depend on the processing

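The count of the 10 genes past the threshold was 6 higher in every alternative fit, and no fit turned the direction of a gene that passed. The count of lower genes, 1 in the main test, was 3 with the length and GC correction, 2 with that correction and the replicate block, 3 with replicates 1 and 2 alone, and 0 to 3 with a sample left out: CYP26B1 no longer passed without WT replicate 1, WT replicate 2 or METTL3-KO replicate 2, and DHRS3 and CRABP2 passed as well without WT replicate 3. The shares of all tested genes called higher and lower moved too, from 13.3% and 13.2% in the main test to 21.4% and 22.7% with replicates 1 and 2 alone. Among 17284 genes of known length and GC content, the correction called 3667 higher and 3541 lower, and with the block 2927 and 2814. Without WT replicate 3 the counts were 3809 and 3793 of 21923 genes. Nothing is read from the counts of the 10 genes, and the cause of these shifts was not tested. Log2 fold changes over the 14 alternatives ran from 3.63 to 4.08 for DHRS9, 0.67 to 0.81 for RARG, 0.53 to 0.63 for RDH11, 0.50 to 0.58 for RDH10, 0.30 to 0.45 for RARA, 1.05 to 1.31 for CYP26A1, -1.51 to -1.07 for CYP26B1, -0.30 to -0.14 for DHRS3 and -0.37 to -0.087 for CRABP2.

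Over all genes, 2986 were higher and 2959 lower in the main test. The replicate block gave 1810 and 1719, and replicates 1 and 2 alone 4555 and 4823. With a sample left out, 2188 to 3809 were higher and 1976 to 3793 lower. Deviations of same-numbered samples from their group means correlated at -0.585, -0.390 and -0.783, and those of samples with different numbers at -0.546 to 0.719. Deviations within a group of 3 are tied to each other, and replicate 3 deviated with length in opposite directions in the 2 groups. These values therefore cannot decide whether the replicate numbers pair the samples. Of the other pathway genes, the block left 10 higher and 9 lower, and a sample left out 10 to 18 higher and 8 to 12 lower. Transcript length and GC content were known for 77% of tested genes, under the 80% needed, so the correction gives no count over all genes, but they were known for all 10 genes and all 55 pathway genes tested. With at most 52 counts in any sample, CYP26B1, CYP26A1 and RARB are the least precise of the 10 genes.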
